A study of Mus musculus with 2 samples.

Results

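Genes of the melanocyte, the pigment-producing cell of the skin, were followed in mouse skin and tooth. They were Dct, Tyr, Tyrp1, Mlana, Slc45a2, Oca2, Mitf, Kit, Ednrb and Mc1r, taken by gene name from the non-control probes of both arrays. These 10 genes, of 24323 named genes in all, carried 14 probes on 24 spots. Mitf, Tyr, Dct and Ednrb had 2 probes each and the other 6 genes had 1.

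Melanocytes arise from the neural crest and make melanin in an organelle of their own, the melanosome. Tyrosinase (Tyr) starts the synthesis, and the related enzymes Tyrp1 and Dct act on later intermediates. Mlana, Slc45a2 and Oca2 are proteins of the melanosome and its membranes. Mitf is the transcription factor that directs the lineage and binds short E-box sequences before pigment genes. The lineage depends on Kit and Ednrb, receptors of stem cell factor and of endothelins, and Mc1r receives melanocortins that set the kind of pigment made. In skin these cells reach the hair follicles, where the pigment is passed to the growing hair.

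Both tissues came from wild-type mice, labelled P0, and the methods of the study name C57BL/6J, a strain with black hair, as its wild type. Total RNA was labelled with Cy3 and hybridised to 1 Agilent array per tissue, 1 for tooth and 1 for skin. The labels give P0 (postnatal day 0) whereas the methods speak of tissue taken 1 day later, and the number of animals behind each array is not given in the sources used here. With 1 array per tissue there is no spread between animals, no test was made, and tissue and array cannot be told apart. Whole tissues were measured, so fewer melanocytes and less RNA per melanocyte cannot be told apart either.

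Signals are processed intensities in arbitrary units. For comparison they were scaled on the log2 scale to the 75th percentile of each array, which was 428 in tooth and 276 in skin, and differences are skin minus tooth. The error given with a difference is that of the extraction software for the spots, with a median of 0.23 for the 10 genes; it does not include variation between animals or dissections. As a check of the tissues, all 6 genes of ameloblasts and odontoblasts, the cells that form enamel and dentin, were well above background in tooth only. All 5 genes of the epidermis and hair follicle were at least 16-fold higher in skin (3.04% of all genes). Across all genes well above background on at least 1 array, 14.2% (2466 genes) reached a 2-fold higher value in skin and 15.5% (2691 genes) did so in tooth. Scaling to spike-in transcripts, which are added to the labelling reaction, in place of the percentile shifted the median difference of all genes by -0.63 and gave 1570 and 5682 genes.

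The 250 bases before the transcription start are shown for genes whose window held TCATGTG, an extended E-box of the kind Mitf binds, or TGACGTCA, bound by cAMP-regulated factors, because 9 of the 10 members were higher in skin. The sequences are from RefSeq (GRCm38.p6), which had windows for 8 of the 10 members, 11 windows in all. Mlana and Slc45a2 had no entry. Each is written in the direction of transcription and ends at the last base before the start. Capitals mark matches to the motifs searched, on either strand.
Tyr, chr7:87493513-87493762, minus strand: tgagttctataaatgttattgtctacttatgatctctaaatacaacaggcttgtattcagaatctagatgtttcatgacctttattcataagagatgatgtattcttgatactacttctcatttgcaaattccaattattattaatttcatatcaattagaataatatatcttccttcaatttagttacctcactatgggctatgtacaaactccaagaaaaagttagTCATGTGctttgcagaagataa
Tyrp1, chr4:80833963-80834212, plus strand: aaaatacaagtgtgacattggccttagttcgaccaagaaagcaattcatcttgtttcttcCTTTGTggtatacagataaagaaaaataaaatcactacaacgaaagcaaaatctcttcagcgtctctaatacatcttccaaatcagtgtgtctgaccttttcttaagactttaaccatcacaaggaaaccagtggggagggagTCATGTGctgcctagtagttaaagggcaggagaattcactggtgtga
Dct, chr14:118052247-118052496, minus strand: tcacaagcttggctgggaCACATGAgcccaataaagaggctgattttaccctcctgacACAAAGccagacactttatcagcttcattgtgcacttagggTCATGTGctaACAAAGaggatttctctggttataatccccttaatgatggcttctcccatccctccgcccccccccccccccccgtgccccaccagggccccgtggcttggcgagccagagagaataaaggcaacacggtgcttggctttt
Mc1r, chr8:123406832-123407081, plus strand: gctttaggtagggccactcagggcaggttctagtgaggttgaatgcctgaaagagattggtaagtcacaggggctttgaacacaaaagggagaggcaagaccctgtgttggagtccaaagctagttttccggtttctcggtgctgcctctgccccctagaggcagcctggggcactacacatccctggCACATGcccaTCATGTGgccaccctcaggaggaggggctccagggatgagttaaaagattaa
Mitf, the most downstream of its 3 start sites, chr6:97991533-97991782, plus strand: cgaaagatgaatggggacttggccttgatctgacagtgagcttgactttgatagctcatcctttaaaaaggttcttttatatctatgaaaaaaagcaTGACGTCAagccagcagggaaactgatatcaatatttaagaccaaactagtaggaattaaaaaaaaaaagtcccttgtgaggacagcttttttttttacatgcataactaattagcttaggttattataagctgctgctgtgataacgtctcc

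The 5 motifs were the E-boxes CATGTG and CACGTG, the extended E-box TCATGTG, the cAMP response element TGACGTCA and ACAAAG, a core bound by Sox and Lef factors. TCATGTG includes CATGTG, so their counts overlap. TCATGTG was found before 4 of the 8 members with a window, in 4 of 11 windows, against 3.25% of 32851 windows of all genes. In Tyr it lay at positions -22 to -16 from the start, in Tyrp1 at -47 to -41 and in Mc1r at -52 to -46. Dct held it at -151 to -145 and, on the opposite strand, at -232 to -226. The shorter CATGTG was also found in Oca2, at -186 to -181 on the opposite strand, which made 5 members, and it was present in 12.3% of all windows. CACGTG was in no member window and in 6.02% of all windows. TGACGTCA was found in the Mitf window shown, at -153 to -146, and in 1.55% of all windows. ACAAAG was in the windows of Dct, Tyrp1 and Oca2 and in 16.5% of all windows. Ednrb, both Kit windows, which start 4 bases apart, and the other 2 Mitf windows held none of the 5. A match describes the letters and does not show that a factor was bound.

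Most of the pigment genes were far higher in skin than in tooth, whereas Mitf, Kit and Ednrb differed less. In skin 10 of the 10 members were well above background, beside 65.8% of all named genes. In tooth 7 were, beside 68.5% of all named genes, and the others were Tyrp1, Slc45a2 and Oca2. At least 2-fold higher values in skin were found for 9 of the 10 (14.2% of all genes) and at least 16-fold higher values for 6 (3.04% of all genes). With dim values at their bound 5 members passed 16-fold, beside 417 of 17409 genes. None was at least 2-fold higher in tooth (15.5% of all genes), although Kit was under spike-in scaling (-1.34). By any amount, 9 of the 10 were higher in skin (47.6% of all genes). The median difference of the members was 5.28, or 4.16 with dim values at their bound, beside -0.04 for all genes, whose quartiles were -0.58 and 0.47.

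**Figure D1:**
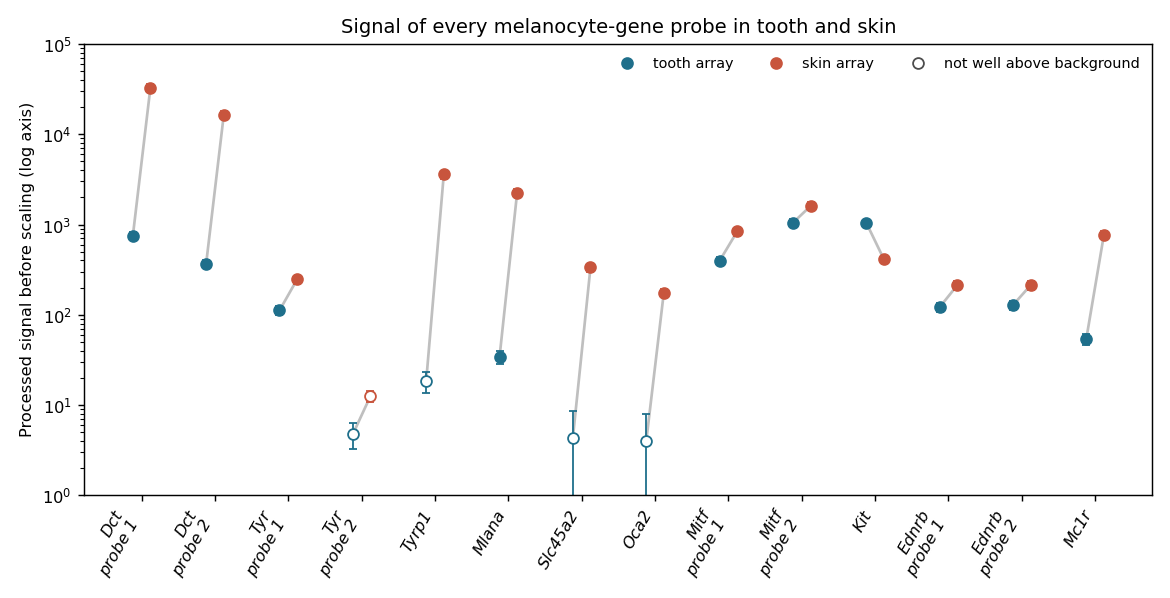
Processed signal of each of the 14 member probes on the tooth array (blue) and the skin array (red), before scaling, on a log axis. Open circles were not well above background, bars are the software error of the spots, grey lines join the same probe, and probes of a gene are numbered from the start of the transcript. Kit is the member with the higher signal in tooth, and signals of different probes are not comparable with each other.

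Among the melanin enzymes Tyrp1 differed most. Its probe (mm9 chr4:80497524-80497583) gave a signal of 18.4 in tooth and 3581 in skin. In tooth it was not well above background, although the more lenient call of the software was met. With the percentile shift Tyrp1 was therefore at least 296.5-fold higher in skin, a log2 difference of 8.21. Other settings gave less, 7.60 with spike-in scaling and 5.91 with normexp, another background correction. Dct, which converts dopachrome, was well above background in both tissues. The probe that stands for it (mm9 chr14:118412029-118412088) read 742 in tooth and 32789 in skin, or from 0.79 to 6.89 after scaling. The difference was 6.10 ± 0.20 (software error), or 68.5-fold, and ranked 86 of the 15271 genes measured in both tissues, counted from the largest toward skin. The other Dct probe shares 44 bases with it and is not an independent measurement. It read 368 and 16277 and gave 6.10 as well.

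Tyr, the gene of the first enzyme of the pathway, showed a smaller difference than Dct and Tyrp1. Its probe at transcript position 954 (mm9 chr7:94632414-94632473) read 112 in tooth and 246 in skin. After scaling this was 1.77 ± 0.22, or 3.42-fold, with rank 863. The other Tyr probe, at transcript position 2897 (mm9 chr7:94576265-94576324), was printed on 10 spots and was not well above background in either tissue. Its spots ranged from 3.89 to 5.18 in tooth (median 4.93), and all 10 were surrogates, values that the software puts in place of a signal too close to background. In skin they ranged from 5.13 to 22.0 (median 13.3). By the lenient call 9 of the 10 skin spots and 0 of the tooth spots were above background. The ranges overlapped at their edge, and the difference of 2.03 rests on surrogates in tooth. These probes lie 56.1 kb apart, and each of them was higher in skin.

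**Figure D2:**
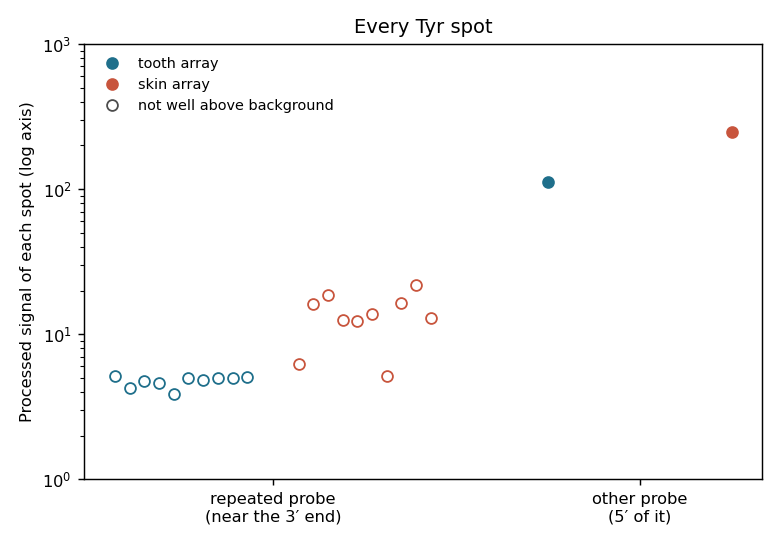
Processed signal of every Tyr spot on a log axis, in tooth (blue) and skin (red). The repeated probe has 10 spots per array, all open because none was well above background, with medians of 4.93 and 13.3, and the other probe has 1 spot per array, at 112 and 246.

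The melanosome genes differed widely between the tissues. Mlana, a small membrane protein of early melanosomes, was the only one of them well above background in tooth. Its signal was 34.0 in tooth and 2251 in skin (mm9 chr19:29782737-29782796). The difference of 6.68 ± 0.28 (102-fold) ranked 66, the highest rank among the 7 members measured on both arrays. Slc45a2, a transporter that influences melanosome pH, read 4.34 in tooth and 334 in skin (mm9 chr15:10958929-10958988). The tooth value was a surrogate, and with the percentile shift the gene was at least 27.7-fold higher in skin. On the log2 scale this bound is 4.79, and normexp gave 3.25. Oca2, an anion channel protein of the melanosome, read 3.97 in tooth, again a surrogate, and 176 in skin (mm9 chr7:63791667-63791726). With the percentile shift Oca2 was at least 14.6-fold higher in skin, or 3.87 on the log2 scale, and normexp gave 2.41. Over the 6 enzyme and melanosome genes the differences ran from 1.77 to 8.23 with a median of 6.39, or 5.44 with dim values at their bound.

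Mitf was well above background in both tissues. Its brighter probe (mm9 chr6:97971229-97971288) read 1044 in tooth and 1601 in skin, which is 1.25 ± 0.20 or 2.38-fold, with rank 1330. The other probe, 2.7 kb upstream (mm9 chr6:97968501-97968560), read 395 and 837 and gave 1.71 or 3.28-fold. The gap of 0.46 between the Mitf probes lay above the median gap of 0.26 over 3241 genes with 2 probes and below the 90th percentile of 0.94. Under spike-in scaling the difference of Mitf was 0.62, less than 2-fold. Melanocytes start Mitf from a promoter of their own, while other cells use promoters farther upstream. Both probes carry the same accession, and their values were not assigned to a start site.

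The receptors differed from each other in direction and size. Mc1r, the melanocortin receptor, read 54.1 in tooth and 766 in skin (mm9 chr8:125934583-125934642). The difference was 4.46 ± 0.24, or 22.0-fold, with rank 188. Ednrb, the endothelin receptor, was moderately higher in skin by both probes, which lie 6.4 kb apart. The probe at mm9 chr14:104214484-104214543 read 128 and 212 (1.36 ± 0.21, 2.57-fold, rank 1202). The other (mm9 chr14:104220870-104220929) read 121 and 212 and gave 1.44. Spike-in scaling brought Ednrb to 0.73, below 2-fold.

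Kit was the exception in direction. Its probe (mm9 chr5:76052394-76052453) had 2 repeat spots per array, which before scaling read 1040 and 1055 in tooth and 407 and 419 in skin. After scaling the difference was -0.71 ± 0.14, a 1.64-fold higher value in tooth that stayed within 2-fold, and Kit ranked 12537 of 15271. Spike-in scaling gave -1.34, past 2-fold toward tooth. The 3 receptors had a median of 1.36.

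**Figure D3:**
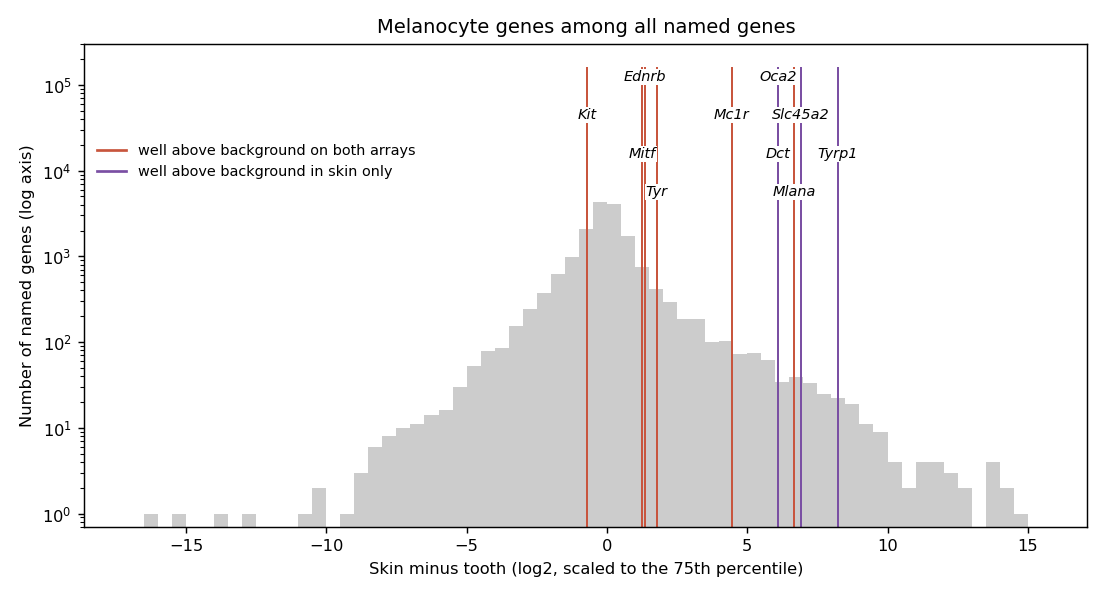
Histogram of the skin minus tooth difference (log2, scaled) over the 17409 named genes well above background on at least 1 array, with the number of genes on a log axis. Lines mark the 10 members, in purple those well above background in skin only, whose position uses the dim tooth value as measured; Kit lies at -0.71 and Tyrp1 at 8.23.

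Ligands and their regulators formed a list of 12 genes, of which 10 were well above background in at least 1 tissue. Of these, 4 were at least 2-fold higher in skin (14.2% of all genes), 2 in tooth (15.5% of all genes) and 4 were within 2-fold. Their median was 0.60, and it was -0.03 under spike-in scaling. Kitl, the ligand of Kit, was near equal, with 294 in tooth and 264 in skin (0.47), or -0.16 under spike-in scaling. For Ednrb, the ligand gene Edn1 read 22.9 and 310 (4.39) and Edn2 read 114 and 476 (2.70). Edn3, the endothelin most closely tied to melanocyte development, was well above background in neither tissue. Ece1, the protease that activates endothelins, was within 2-fold (0.73).

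The melanocortin axis held differences in both directions. Pomc, the precursor of the Mc1r agonist, was higher in tooth, with 276 against 41.6 in skin (-2.10). The agouti gene (a), which encodes the antagonist of Mc1r, was well above background in skin only. Its brighter probe read 16.3 and 264 and was at least 21.9-fold higher in skin, and its other probe was at least 3.17-fold higher. Corin, a protease that limits agouti signalling, was also measured in skin only and was at least 10.8-fold higher. Atrn (-0.35) and Mgrn1 (-0.70), which act with agouti, stayed within 2-fold. Hgf, a growth factor for melanocytes, read 28.5 in tooth and 6.06 in skin and was well above background in tooth only, where its bound gave no fold. As measured it differed by -1.60, but with the dim value at its bound or under normexp, another background correction, it passed 2-fold no longer and its sign changed (0.10 under normexp). Adamts20 was well above background in neither tissue.

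Of the 13 transcription factors of the lineage, 11 were measured, with a median of 1.15. There were 6 at least 2-fold higher in skin (14.2% of all genes), 1 in tooth (15.5% of all genes) and 4 within 2-fold. Sox10, which acts on Mitf and Dct, read 100.1 in tooth and 599 in skin (3.21). Pax3, another regulator of Mitf, gave 1.15 with its brighter probe and 1.83 with the other. Tfap2a (2.48) and Tfap2b (4.35), which are also made by epidermal cells, and Lef1 (1.79) were higher in skin. Under spike-in scaling, a median shift or normexp Pax3 was below 2-fold (0.52 under spike-in scaling), and the other 5 stayed at least 2-fold higher in skin under these settings. Irf4, a pigmentation factor that is also a lymphocyte gene, was measured in skin only and was at least 6.40-fold higher. Tbx2 ran the other way, with 1904 in tooth and 52.5 in skin (-4.55). The relatives of Mitf, Tfe3 (0.11) and Tfeb (0.52), were within 2-fold, as were Snai2 (-0.16) and Sox5 (0.65). The Sox5 value is that of its brightest probe. Another read 24.1 in tooth and 19.1 in skin and was well above background in tooth only. The last read 8.93 and 10.4 and was so in neither tissue. Foxd3 and Tfec were well above background in neither tissue.

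The other melanosome proteins, 11 genes, had a median of 1.02, which was 2.94 with the mean of probes, 1.69 with normexp and 0.39 with spike-in scaling. There were 6 at least 2-fold higher in skin (14.2% of all genes), 1 in tooth (15.5% of all genes) and 4 within 2-fold. Pmel, which forms the fibrils on which melanin is laid down, read 78.3 in tooth and 8909 in skin, which is 7.46 or 176-fold, with rank 44. Slc24a5, an exchanger of the melanosome, differed by 3.27 and Gpnmb, which macrophages also make, by 2.95. Gpr143, the ocular albinism receptor, and Tspan10 were well above background in skin only, at least 24.2-fold and at least 15.6-fold higher. Atp7a, which supplies copper to tyrosinase, was just past 2-fold (1.02) and below it under spike-in scaling (0.39), a median shift or normexp.

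Trpm1 depended on the probe. The brightest of its 4 probes gave 0.50, with 1468 in tooth and 1342 in skin. Another gave 5.30, with 23.0 and 587. The remaining ones were well above background in skin only, 31.0-fold higher as measured and at least 5.72-fold higher. The probes carry 3 accessions, and the brightest stands for the gene in the median. Mcoln3 gave 0.90 and 2.67 by its probes. Cd63 (-0.74), a protein of endosomes in most cells, was within 2-fold. Slc7a11, the cystine transporter, read 30.0 in tooth and 4.57 in skin, where it was not well above background, and its bound gave no fold. The tooth call rested on the dim skin value as measured (-2.09) and was lost, with a change of sign, with that value at its bound. Tpcn2 read 29.1 and 24.9 and was well above background in tooth only.

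Genes for the making and transport of melanosomes lay near the bulk of all genes. These include the subunits of the BLOC and AP-3 complexes and the Hermansky-Pudlak syndrome genes, which also serve lysosome-related organelles elsewhere. All 24 were measured, with a median of -0.02 and a range of -0.79 to 1.59. Of these, 21 were within 2-fold, beside 12252 of 17409 genes. The other 3 were at least 2-fold higher in skin, a share near that of all genes (14.2%). Rab38, which carries pigment enzymes to the melanosome, differed by 1.18 with its brighter probe. Its other probe read 4.94 in tooth and 5.41 in skin and was well above background in neither. Mreg, a regulator of melanosome transfer, differed by 1.59. Mlph, which ties melanosomes to myosin, was measured in skin only and was at least 2.87-fold higher. Its partners Rab27a (0.12) and Myo5a (0.27) were within 2-fold. Under spike-in scaling all 3 higher genes fell below 2-fold (Rab38 0.55, Mreg 0.96, Mlph 0.96). Rab38 was also below 2-fold with a median shift (0.93) or the mean of probes (0.97), and Mlph under normexp (0.78).

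**Figure D4:**
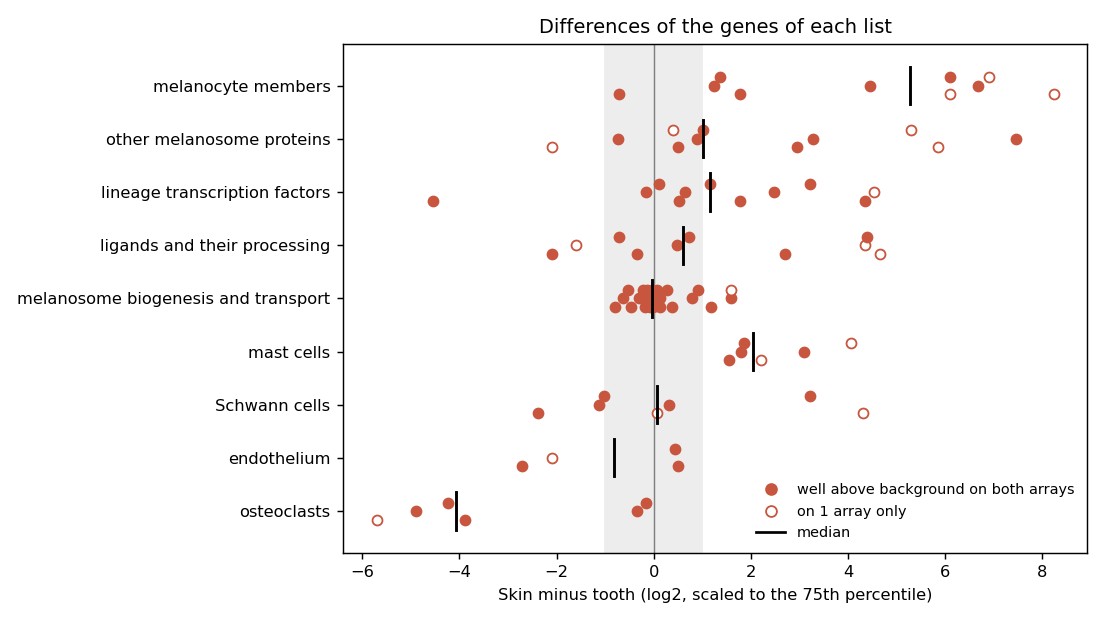
Skin minus tooth difference (log2, scaled) of each measured gene of the members and of 8 other lists, 1 row per list, with filled circles for genes well above background in both tissues, open circles for those in 1 tissue only and a black bar at the median. The grey band is less than 2-fold; the members have a median of 5.28 and the melanosome biogenesis and transport genes one of -0.02.

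Kit, Mitf and Ednrb are also made by other cells, and markers of those cells differed between the tissues. Mast cells carry Kit and Mitf. Of their 8 markers 6 were measured, 2 of them (Cma1 and Tpsab1) in skin only, with a median of 2.04. All 6 were at least 2-fold higher in skin (14.2% of all genes), although Tpsb2 was below 2-fold under spike-in scaling (0.92) and Tpsab1 under normexp. The summed signal of the 6 was 413 in tooth and 1152 in skin. The summed signals of this and the following lists are before scaling and weighted toward bright probes, so they do not give a scaled difference. The protease genes Cpa3 (8.57-fold) and Cma1 (16.7-fold as measured, with a dim tooth value) were among the 6. Ms4a2 and Fcer1a, subunits of the IgE receptor, were well above background in neither tissue. Osteoclasts express Mitf, and their 6 markers had a median of -4.06, or -2.38 under normexp. Of these, 4 were at least 2-fold higher in tooth (15.5% of all genes): Ctsk (-4.89), Dcstamp (-4.24), Acp5 (-3.88) and Atp6v0d2 (at least 13.9-fold). Oscar (-0.34) and Tnfrsf11a (-0.17) were within 2-fold, and the summed signal was 127782 in tooth and 5393 in skin.

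Schwann cells and their precursors carry Ednrb and share Sox10 with melanocytes. Their 7 markers had a median of 0.06, which was -0.19 with a median shift, -0.23 with quantile normalization and -0.57 with spike-in scaling. S100b (-2.39), Ngfr (-1.14) and Mbp (-1.02) were higher in tooth, and Mbp passed 2-fold with its brightest probe only. Erbb3 (at least 9.82-fold) and Sox10 were higher in skin, and the summed signal was 6100 in tooth and 2554 in skin. The 4 endothelial markers had a median of -0.83, or -1.48 with the mean of probes. Cdh5 (-2.70) and Tek (at least 2.77-fold) were higher in tooth, and under normexp Tek was within 2-fold (-0.43). Pecam1 (0.50) and Kdr (0.43) were within 2-fold, Kdr by its brightest probe. The other probe of Kdr, printed on 10 spots and well above background in both tissues, gave -2.19. The summed endothelial signal before scaling was 13097 in tooth and 10529 in skin. Most of it came from the brightest Kdr probe, with 11729 and 10208, so the sum gives no direction for the list. Whether these cells had a part in the values of Kit, Mitf and Ednrb was not tested.

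Direction held for each member under each of the 9 other ways of processing that gave it a value, while size did not. The smallest differences came from normexp for Tyrp1 (5.91), Mlana (5.14), Slc45a2 (3.25), Oca2 (2.41) and Mc1r (3.28). Normexp was run with an offset of 50 added to every signal, which by construction shrinks the differences of probes that are dim in 1 tissue. For Dct (5.47), Tyr (1.14), Mitf (0.62), Ednrb (0.73) and Kit (-1.34) the lowest values came from spike-in scaling.

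**Figure D5:**
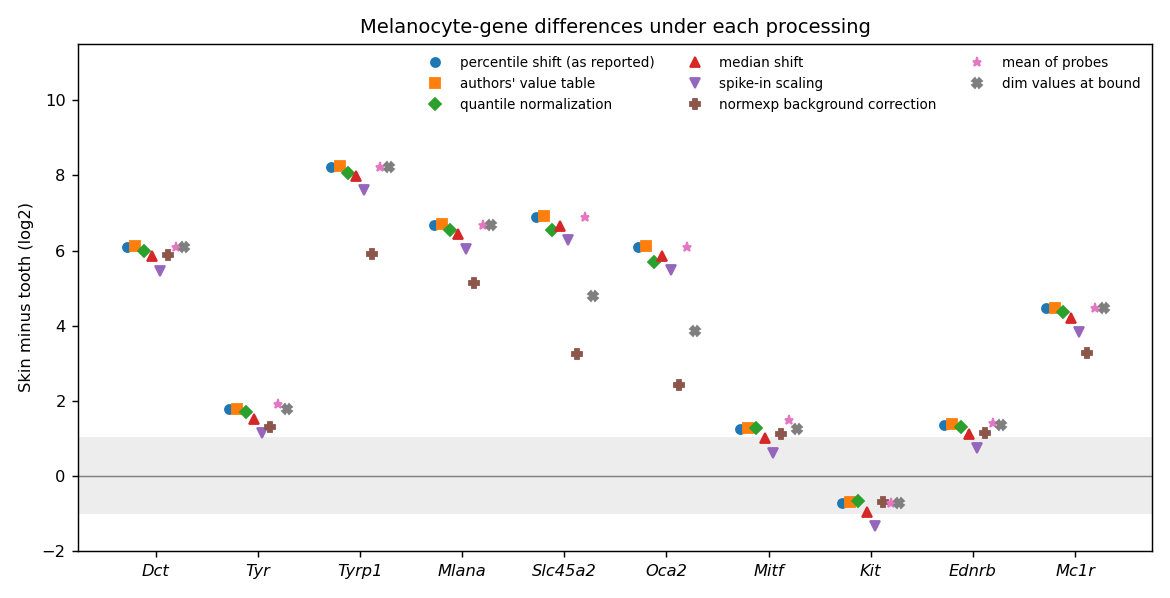
Skin minus tooth difference (log2) of each member under the reported percentile shift and 7 other ways of processing; the grey band is less than 2-fold. Tyrp1, Mlana, Slc45a2, Oca2 and Mc1r fall furthest under normexp, and under spike-in scaling Mitf and Ednrb enter the band while Kit leaves it toward tooth.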

How the data were processed

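Total RNA of wild-type mouse tooth and skin was measured on 1 Agilent array per tissue. Per the labels, the spots were read with Agilent Feature Extraction 10.7.3.1. Per the file headers, the deposited intensity values had been background-subtracted and detrended within each array, with surrogates in place of very dim signals (22.8% of the 59305 non-control spots in tooth, 25.5% in skin). The calls for background, outliers and saturation came from the same software. GeneSpring, a percentile shift and a filter on low signal are named in the study's methods. A further table from the authors gave each processed intensity as a ratio to a factor per array and served as an alternative.

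Outlier spots (137 in tooth, 146 in skin) were left out and no spot was saturated. Spots of a probe were averaged on the log2 scale, and the 75th percentile over non-control probes was subtracted from each array. The probe with the highest mean stood for a gene. A probe was well above background when over 50% of its spots were so called, and a gene entered counts and medians when this held in at least 1 tissue. Where a probe was dim in 1 tissue, the fold was a bound against the higher of its own value there and the lowest signal well above background (-4.52 in tooth, -3.73 in skin, scaled log2). Each such bound holds for the percentile shift, and other settings can give a smaller fold. List medians used the dim value as measured unless the bound is named. Repeated spots had a median SD of 0.08 in tooth (288 probes that had 8 or more spots called well above background) and 0.09 in skin (273 probes). The number of arrays limits the precision.

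Names came from matching the accessions of the array to RefSeq (82.1% of 33182 named probes matched), otherwise from the array. Probe coordinates are those of the files (mm9), and the exon, intron or UTR under a probe was not analysed here. Promoter windows are of GRCm38.p6. The members and lists were chosen with earlier results of these data known. All members with each probe were named, and from the other lists the genes at least 2-fold different or singled out by their role. The scripts were tested on simulated data and used Python (numpy 2.4.6, pandas 2.3.3, scipy 1.17.1, matplotlib 3.10.9), also for quantile normalization. Normexp with an offset of 50 was run with limma 3.58.1 in R 4.3.3. The alternatives were spike-in scaling (8 transcripts well above background on both arrays), a median shift, quantile normalization, normexp, the authors' table, the mean of a gene's probes, no filter on dim probes, detection on both arrays, and dim values at their bound.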

Additional observations from a re-analysis of the deposited data

How the results depend on the processing

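With 1 array per tissue no difference has a replicate check. No paired analysis was possible because each tissue has 1 array. Of the 10 members, 9 were higher in skin in each setting, except that 6 of the 7 genes measured on both arrays were. At least 2-fold higher values in skin were found for 9, beside 2466 of 17409 genes. Under spike-in scaling 7 were, beside 1570 of 17409, and with both arrays required 6 were, beside 1745 of 15271. The median difference of 5.28 became 5.03 with a median shift or quantile normalization, 4.65 with spike-in scaling, 4.16 with dim values at their bound, 2.83 with normexp and 1.77 with both arrays required, which drops Tyrp1, Slc45a2 and Oca2. Among the other lists, 6 of 10 medians lay above 0, and 4 did under spike-in scaling. The Schwann cell median of 0.06 became -1.02 with both arrays required, -0.19 with a median shift, -0.23 with quantile normalization and -0.57 with spike-in scaling. For endothelium the median of -0.83 became 0.43 with both arrays required. That of ligands became -0.028 with spike-in scaling, and that of biogenesis and transport became 0.016 with the mean of probes. Over all genes the 2-fold threshold was reached by 2466 toward skin and 2691 toward tooth, against 1570 and 5682 with spike-in scaling, 1743 and 1672 with normexp and 2020 and 3500 with a median shift. Without a filter on dim probes these counts were 3676 and 2885, over 24323 genes. For dim probes the signal over background limits the fold, as in Tyrp1, Slc45a2 and Oca2.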
